A study of Mus musculus with 2 samples.

Results

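The cytosolic ribosomal protein genes encode the proteins of the small and the large subunit of the ribosome outside mitochondria. Members were taken by gene symbol: Rpl or Rps followed by a number with an optional letter, digit or final l, the stalk genes Rplp0, Rplp1 and Rplp2, and Rpsa, with symbols marked as pseudogenes (-ps) left out. This rule found 86 of the 18088 genes in the deposited table. All 77 canonical mouse genes of the list used here had a row, and the other 9 members were paralogs or retrocopies (Rps27l, Rpl22l1, Rpl36al, Rpl7l1, Rps4l, Rps3a3, Rps3a2, Rpl6l and Rpl32l). The annotation (GENCODE M21, build GRCm38) lists 81 members as protein-coding, 4 as processed pseudogenes and 1, Rps4l, as a transcribed processed pseudogene.

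The cells came from the medial ganglionic eminence (MGE), the part of the embryonic ventral forebrain that makes cortical interneurons and neurons of the basal forebrain, of CD-1 mouse embryos at E11.5. The embryos carried 1 of the enhancers hs192 and hs799. Of the 6 MULTI-seq sample barcodes, which mark cells of different suspensions in 1 droplet run on the 10x Chromium platform, 4 marked GFP-gated cells (2 per enhancer) and 2 marked ungated cells (1 per enhancer). Cells were not assigned to these barcodes here, so all of them formed 1 sample, the enhancers and gates were not compared, and the gate can set the share of any cell class. CD-1 is an outbred stock, and the number of embryos pooled is not stated in the labels. With 1 library there are no replicates, so the spread given below is the standard deviation (SD) over cells and no difference has a test.

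Each ribosome carries 1 copy of almost every ribosomal protein, so cells make these proteins in near-equal amounts, and their mRNAs are among the most abundant in growing cells. Many of these mRNAs start with a run of pyrimidines, the 5′ terminal oligopyrimidine (TOP) motif, through which mTOR signalling and the protein Larp1 set their translation. Neural progenitors in the ventricular zone (VZ) divide and grow, their daughters in the subventricular zone (SVZ) commit to neuronal fates, and young neurons leave the cell cycle. A few ribosomal proteins have a close paralog that can take the same place in the ribosome, among them Rpl22 with Rpl22l1 and Rps27 with Rps27l.

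The start of the transcript is shown for the members the results turn on, as 25 bases from 10 before to 15 from the RefSeq start site (build GRCm38.p6), 5′ to 3′ on the gene's strand, with the longest run of pyrimidines (C or T) in capitals. The first 5 have the longest runs among the members read for sequence, and the next 6 are genes whose levels differ most between cell classes or their paralog partners.
Rpl27a at chr7:109519185-109519209: cgtgagCTCCTCCCTTTTCCCTTTC
Rpl35 at chr2:39005117-39005141: ccgCCCTTTCCTCTTTCTCTCgaac
Rpl15 at chr14:18270972-18270996: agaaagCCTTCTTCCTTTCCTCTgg
Rpl7a at chr2:26910797-26910821: CTCTTCTTTCTTTCTCCagcagccg
Rpl14 at chr9:120571507-120571531: ggCCCTCTCTCTTCTCgctgagcgc
Rps27 at chr3:90213634-90213658: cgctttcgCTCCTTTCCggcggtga
Rps27l at chr9:66946076-66946100: CCTCCCCgccgcctctatcccggaa
Rpl22 at chr4:152325716-152325740: CCTgggaaaagcaatagctggccga
Rpl22l1 at chr3:28805498-28805522: gcgcaagcccgTTCTCTTCCCacgg
Rpl12 at chr2:32961702-32961726: agcaggatccgTCTTTTCggctttc
Rps2 at chr17:24720053-24720077: gtcgagatctcgcgCTTCTTggagc
RefSeq gave 73 such windows for 62 members, and 24 members had no entry under their symbol. A run of at least 8 pyrimidines stood in 32.9% of the members' windows and in 9.49% of all 32851 windows in the table. A run of at least 10 stood in 24.7% and 3.98%. A run in this window is a description of the letters around an annotated start, which can differ from the start used in these cells.

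All values below derive from the authors' table of unique molecules per gene and cell, which appear from their narrow range of cell totals to have been adjusted for depth. A gene's level is its summed value in a class per 10000 summed values of that class. Since values derive from molecules and not from fragments along a transcript, levels were compared between genes without dividing by length. Cell totals lay between 10475 and 14196, so raw sequencing depth per cell is unknown. Cells were clustered without the members, which gave 17 clusters. Of 3995 cells, 1132 were VZ progenitor-like (Hes5, Nes, Fabp7), 432 SVZ progenitor-like (Dll1, Gadd45g), 1570 neuron-like (Tubb3, Dcx, Map2 in 7 of 8 clusters, and Gap43, Snap25, Ina in cluster 14) and 861, in 3 clusters, stayed unnamed. Among the neuron-like cells, 633 were GABAergic MGE neuron-like (Lhx6, Maf, Nxph1), 515 cholinergic neuron-like (Lhx8, Gbx1, Gbx2) and 152 lateral ganglionic eminence (LGE) neuron-like (Ebf1, Tac1).

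Ribosomal protein genes gave 13.3% of all values, 695 per 10000 from the large-subunit and 631 from the small-subunit genes, copies included. They made up 27 of the 50 and 51 of the 100 genes with the highest level, although 2 of the top 20. Among the highest levels per 10000 were those of Rpl32 at 31.6, Rpl41, which encodes the shortest protein of the ribosome, at 30.3, Rps29 at 30.3 and Rpsa, a small-subunit protein also known as a laminin receptor, at 28.1. These levels differed from each other by less than their SD over cells. At the other end stood the retrocopies Rpl32l (0.00718), Rps3a2 (0.0598) and Rpl6l (0.0778), which were the only members under the minimum level of 0.1 used for ratios. Rps4l (0.726), the large-subunit gene Rpl29 (0.811) and Rpl7l1 (1.39) came next. The remaining 83 members are the tested ones in all counts below.

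Many members have near-identical copies elsewhere in the genome. A search of GENCODE transcripts (at least 95% identity over at least 80% of the shorter transcript, and at least 200 bases) found them for 79 of the 86 members, 580 copies in all. Of these copies, 313 were non-members with a row in the table, and their levels summed to 39.6 per 10000 against 1326 for the members. Only 7 of them reached a level of 1. The labels do not say how reads that match several copies were counted, so values split between near-identical genes are uncertain. The largest copy was Gm15772, a processed pseudogene of Rpl26 at chr5:3236431-3236868, with a level of 6.77 against 2.04 for Rpl26 itself. Gm10260, a copy of Rps18 at chr13:97760072-97760632 annotated as protein-coding, had 6.47 against 11.1 for Rps18. Gm10076, a copy of Rpl41, had 3.77 against 30.3. Rpsa-ps10 had 4.49 against 28.1 for Rpsa. Exons of 13 members also overlap a protein-coding gene on the opposite strand, of which Ube2s at Rpl28 (6.70), Trappc4 at Rps25 (2.79) and Arpc5l at Rpl35 (1.51) had a level of at least 1. Whether strand was used in counting is not stated.

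The members' share of all values was highest in progenitors and lowest in neurons. It was 15.7% in VZ progenitor-like cells (SD 2.08 over 1132 cells), 14.3% in SVZ progenitor-like cells (SD 3.01, 432 cells) and 10.6% in neuron-like cells (SD 2.32, 1570 cells). Within neurons it was 10.97% in the GABAergic (SD 2.06), 10.0% in the cholinergic (SD 2.26) and 9.31% in the LGE-like class (SD 1.91). The central 90% of cells spanned 11.9% to 19.0% in the VZ class and 7.005% to 14.4% in neurons, so single cells of the classes overlap.

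The order over clusters was finer than progenitor against neuron. Cluster 16 was highest at 17.6% (86 SVZ progenitor-like cells led by Gsx1, Sulf1 and Gadd45g). It met the naming rule with 8 SVZ markers, but Hes5, a marker of the VZ class, was at 13.0 there. Hes5 stood at 8.99, 15.2 and 8.87 in VZ progenitor-like clusters 1, 2 and 15. In SVZ progenitor-like clusters 11 and 9 it stood at 3.47 and 2.11, so the SVZ name of cluster 16 is uncertain. Cluster 10, an unnamed cluster of 180 cells led by Slit1 and Dll3, followed at 16.7%, with Mki67, a marker of dividing cells, at a level of 0.115 there against 0.664 in cluster 16 and 2.44 in cluster 1. Cluster 1, VZ progenitor-like cells led by the DNA replication genes Ung, Cdc6 and Cdt1, had 16.3%, and cluster 15, led by Neurog1, Neurog2 and Dbx1, 15.8%. Cluster 2, VZ progenitor-like cells led by histone genes, had 15.002%. The cycling SVZ progenitor-like clusters were lower, at 13.7% for cluster 11 (histone genes) and 13.4% for cluster 9 (Ube2c, Cdc20, Ccnb2). Dividing clusters were therefore not always above non-dividing ones. All 8 neuron-like clusters lay between 9.31% (cluster 12) and 11.7% (cluster 13), below every other cluster. The unnamed clusters 3 and 6 had shares of 13.4% and 13.7%, yet neuronal genes were high there. Tubb3 was at 27.9 and 28.6 and Dcx at 4.83 and 4.16, against 24.7 and 2.71 in neuron-like cluster 14. The gap between neuron-like and other clusters therefore depends in part on these cells staying unnamed. Most members followed the sum. Of the 81 members with a level of at least 1, 47 peaked in cluster 16, 16 in cluster 10 and 14 in cluster 1, and 48 were lowest in cluster 12 and 20 in cluster 8.

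**Figure D1:**
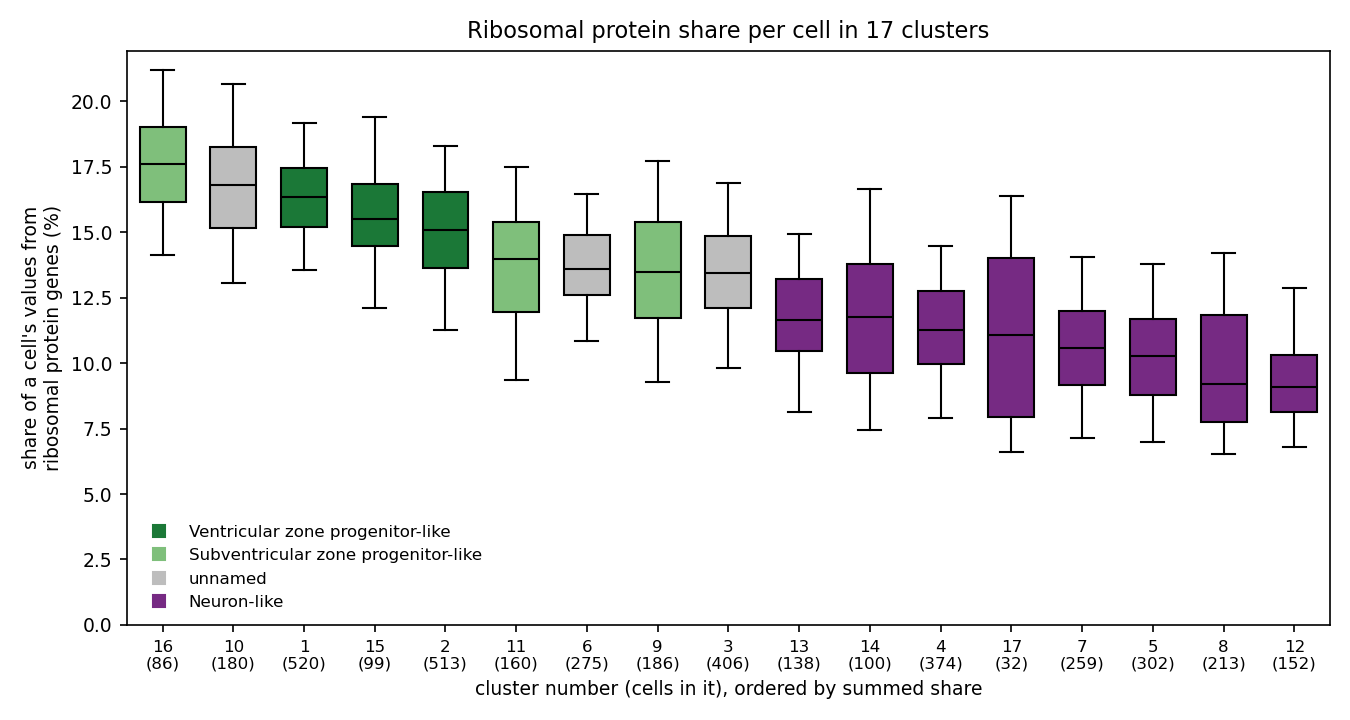
Share of each cell's deposited values that came from the 86 ribosomal protein genes (y axis, %), by cluster (x axis, cells in parentheses), with boxes for the quartiles, a line for the median and whiskers from the 5th to the 95th percentile of cells. The 8 neuron-like clusters on the right all have a summed share under 12%, and the 4 clusters on the left a share above 15.7%.

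Other measures moved with this order. Malat1, a nuclear noncoding RNA, had a level of 115 in VZ progenitor-like cells, 127 in SVZ progenitor-like cells and 376 in neurons. Over the 17 clusters its level and the members' summed level had a Pearson r of -0.92, as a description of clusters of 1 library. Malat1 was not alone in this: Stmn1 and Rab3a, both higher in neurons than in VZ cells (log2 ratios 1.62 and 4.02), also had an r of -0.92. Within clusters the r between a cell's ribosomal protein share and its Malat1 level was negative in all 17, from -0.78 (cluster 17) to -0.06 (cluster 16). Genes per cell had medians of 4525 in the VZ class and 3882 in neurons. Leaving out cells above their cluster's median Malat1 level, a setting added after seeing the data, gave shares of 15.5% in SVZ progenitor-like cells and 11.8% in neurons, and the ratio of summed levels between neurons and VZ cells was then -0.47 on the log2 scale against -0.56 with all cells. With levels taken per 10000 of the values outside the members and Malat1, also added later, it was -0.60. Fewer ribosomal protein mRNAs in a neuron and more of other RNA cannot be told apart in values scaled to a common total.

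Neuron-like cells had lower levels than VZ progenitor-like cells for most members. The summed level was 1061 per 10000 in neurons and 1566 in VZ cells, 1.48-fold lower. Of the 83 tested members, 63 were lower in neurons by at least 20% and 2 (Rpl26 and Rps4l) higher by at least 25%, the same size of change in either direction, and 18 lay between. A member is called lower or higher by this rule throughout. Among all 8750 genes with a level of at least 0.1, 39.5% were lower by that rule and 33.8% higher. The median log2 ratio was -0.49 for the members and -0.07 for all of these genes. At a minimum level of 1, 63 of 81 members were lower against a background of 33.9% of 1880 genes, and 1 was higher against 37.7%. At 1.5-fold the members' count was 35 lower and 0 higher, against 29.8% and 24.8% of all genes. Small-subunit members (28 of 34 lower, median -0.50) and large-subunit members (35 of 49 lower, median -0.46) differed little.

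**Figure D2:**
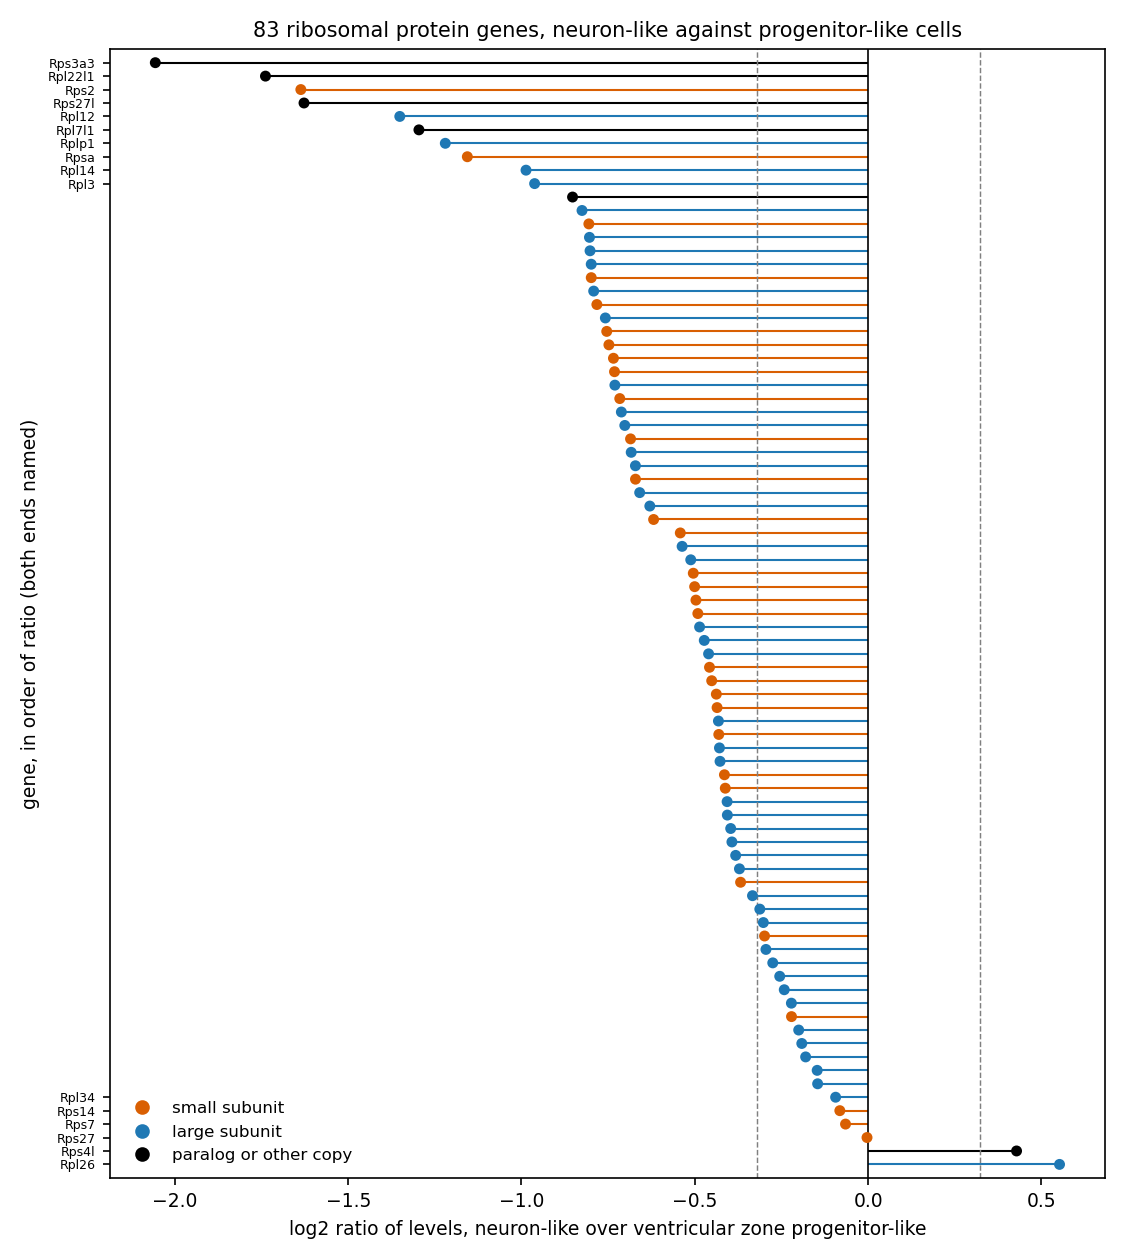
Log2 ratio of the level in neuron-like cells over that in ventricular zone progenitor-like cells (x axis) for each of the 83 tested ribosomal protein genes, in order (y axis, names at both ends), with dashed lines at a level 20% lower and 25% higher. Points run from -2.06 for Rps3a3 to 0.55 for Rpl26, with 81 of 83 below 0.

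The members differed widely around that median, from -2.06 to 0.55. Among the small-subunit proteins, Rps2 (chr17:24718116-24721929, protein-coding), which lines the mRNA entry channel, had a level of 20.9 in VZ cells (SD 6.04) and 6.71 in neurons (SD 3.04), a log2 ratio of -1.64. Its values in single cells barely overlapped between clusters 1 and 8, with 90% of cells at 15 to 42 and 3 to 12.4. These were the clusters with its highest and lowest level (21.2 and 5.98). In neuron-like cluster 4 the same range was 4 to 16.35, which overlaps that of cluster 1. Rpsa (chr9:120127689-120132369) had 39.1 (SD 7.56) in VZ cells and 17.5 (SD 6.45) in neurons, a log2 ratio of -1.16. Rps6, the small-subunit protein phosphorylated downstream of mTOR, had 6.89 and 4.10 (log2 ratio -0.75). Rps19, mutated in Diamond-Blackfan anaemia, had 16.4 and 9.85 (-0.73). Rps27a, made as a fusion with ubiquitin, had 31.0 and 18.7 (-0.73). Others stayed close to equal. Rps27 had 18.7 in both classes (SD 4.41 and 6.29, log2 ratio -0.003), Rps7 had 16.0 and 15.3 (-0.07), and Rps14 had 26.6 and 25.1 (-0.08). Ratios this near 0 depend on the scaling: for Rps27 they ran from -0.10 to 0.13 over 12 alternative settings.

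Among canonical large-subunit proteins, Rpl12 (chr2:32961559-32965345), which lies at the base of the stalk where elongation factors bind, was lowest with 21.3 in VZ cells (SD 5.49) and 8.35 in neurons (SD 3.76), a log2 ratio of -1.35. Of the stalk proteins themselves, Rplp1 had 30.3 (SD 7.37) and 13.0 (SD 5.16), a log2 ratio of -1.22. Rplp0, which anchors the stalk, had 20.9 and 12.0 (-0.80), and Rplp2 had 23.7 and 14.3 (-0.73). All members of the stalk and its base were thus below the members' median of -0.49. Rpl14 (-0.99), Rpl3 (-0.96), which sits near the peptidyl transferase centre, and Rpl41 (-0.79) were also low. Rpl5 and Rpl11, which bind the small ribosomal RNA of the large subunit and can hold Mdm2 when ribosome assembly is disturbed, were nearer the median, at -0.54 and -0.46. Rpl38, known for its part in translating Hox mRNAs in the embryo, had 15.1 and 11.2 (-0.43). Rpl10, which joins the large subunit late in assembly, had 15.5 and 14.0 (-0.15), and Rpl34 had 11.03 and 10.3 (-0.09).

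Paralogs were compared with their canonical partners. Rpl22l1 (chr3:28805436-28807424) had a level of 8.27 in VZ cells (SD 3.08), 5.72 in SVZ cells and 2.48 in neurons (SD 1.75), a log2 ratio of -1.74 between neurons and VZ cells. Its partner Rpl22 (chr4:152325742-152334071) had 13.4, 12.2 and 8.36, a log2 ratio of -0.68. Rpl22l1 therefore gave 38.1% of the pair's values in VZ cells, 31.9% in SVZ cells and 22.9% in neurons. By cluster it ran from 18.4% in cluster 4 to 38.5% in cluster 1. Rps27l (chr9:66946086-66949516), a paralog regulated by p53, had 6.08 in VZ cells (SD 2.48), 4.77 in SVZ cells and 1.97 in neurons (SD 1.37), a log2 ratio of -1.63. With Rps27 near equal in the classes, the share of Rps27l in the pair was 24.6% in VZ cells, 19.6% in SVZ cells and 9.55% in neurons.

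Rpl7l1, whose protein takes part in assembly of the large subunit, had 2.18, 1.57 and 0.888 in the same order (log2 ratio of neurons to VZ cells -1.30), and its share beside Rpl7 was 14.9%, 11.49% and 7.78%. Rpl36al had 2.61, 1.81 and 1.45 (-0.85), much like Rpl36a with 13.2, 11.9 and 7.55 (-0.80), so its share stayed at 16.6%, 13.2% and 16.1%. Rps4l had a ratio above 0, with 0.613 in VZ cells (SD 0.907) and 0.825 in neurons (SD 1.17), a log2 ratio of 0.43. Both levels stand for about 1 value per cell or less, and Rps4l was at 0 in 55.8% of the cells of cluster 1 and in 49.7%, 62.3% and 58.7% of the neuron-like clusters 4, 5 and 8. Its level in cluster 5 (0.621) was below that in cluster 1 (0.644), so the direction did not hold in every neuron-like cluster. The other canonical genes with a known paralog were Rpl39 (log2 ratio -0.33), Rpl3 and Rpl10. Values for Rpl39l, Rpl3l and Rpl10l were not analysed here.

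**Figure D3:**
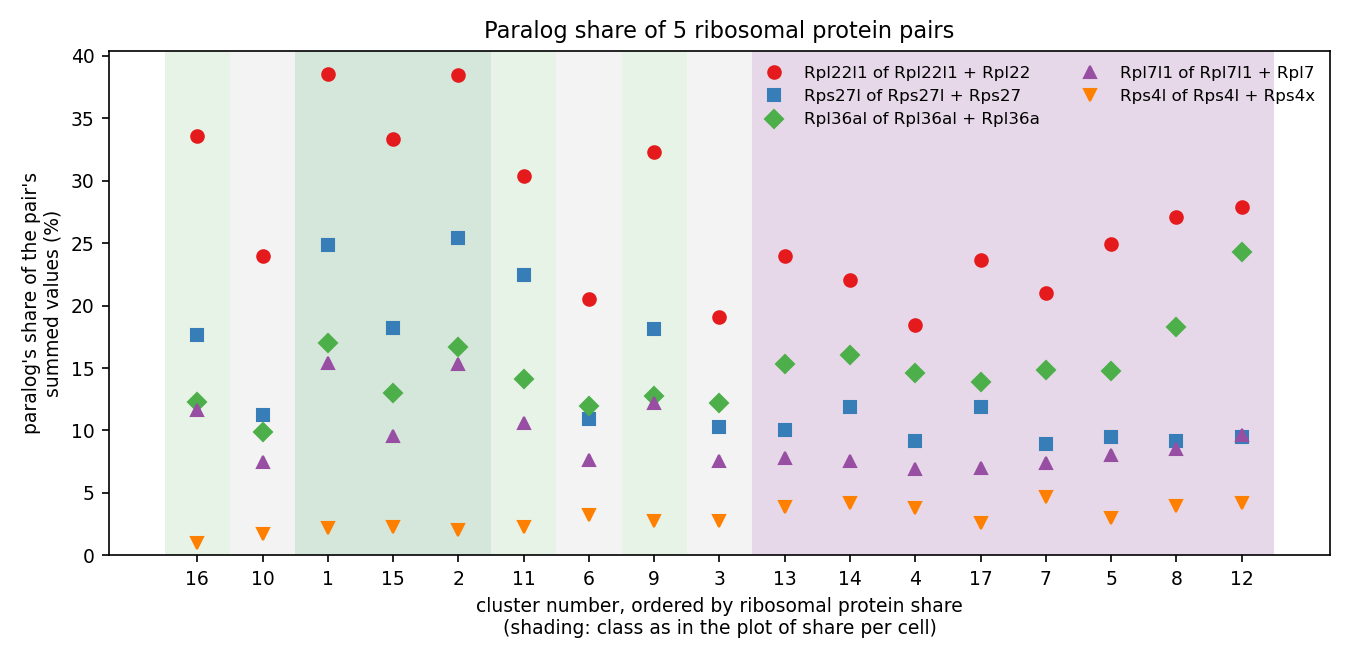
Share of a pair's summed values that came from the paralog (y axis, %) in each of 17 clusters (x axis, ordered by ribosomal protein share) for 5 pairs, with the class of each cluster shaded. Rpl22l1 runs from 18.4% to 38.5%, highest in clusters 1 and 2, while Rps4l stays under 5%.

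Counts assigned to copies changed the value of some members. Rpl26, the only member at a level of at least 1 that was higher in neurons by the rule, had 1.65 in VZ cells (SD 1.30) and 2.42 in neurons (SD 2.88), a log2 ratio of 0.55. Its copy Gm15772 had a log2 ratio of -0.48, and the copies and Rpl26 summed, a setting added after seeing the data, had 9.58 and 8.05, a log2 ratio of -0.25. The copy held 82.3% of the summed values of Rpl26 and Gm15772 in cluster 1 and 57.7% in cluster 5, where Rpl26 was highest. In neuron-like clusters 12, 13 and 17 the copy held 80.7%, 82.5% and 81.9%. Rpl26 was at 1.21, 1.37 and 1.49 there, below its level in VZ cells, so the direction did not hold in every neuron-like cluster. In cluster 5 the Rpl26 values were spread, with quartiles of 1 and 7 and a 95th percentile of 13, while in cluster 1 they were 1 and 3 with a 95th percentile of 5. The transcripts of Rpl26 and Gm15772 differ at 2 of 438 aligned bases (C224T and T335C, positions counted from the 5′ end of the Rpl26 transcript). The 30 bases around the second difference, with the differing base in capitals, show how alike the transcripts are.
Rpl26, positions 320 to 349: tggcacaaccgtccaTgtgggcatccaccc
Gm15772, same stretch: tggcacaaccgtccaCgtgggcatccaccc
For the other families the sum changed little: Rps18 had a log2 ratio of -0.78 alone and -0.79 with its copies, Rpl41 -0.79 and -0.80, and Rpsa -1.16 and -1.24. Rps3a1 moved from -0.30 alone to -0.74 with its copies.

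Rps3a1 and Rps3a3 had the most unusual values of any member pair. Rps3a1 (chr3:86137940-86142702) encodes a small-subunit protein, and Rps3a3 (chr13:108670603-108671397) is a processed pseudogene whose 795 bases align to the Rps3a1 transcript with 9 substitutions and 0 gaps (98.9% identity). The last 2 are C895T and G925A, counted from the 5′ end of the Rps3a1 transcript. The 30 bases that end the aligned stretch show the latter in capitals.
Rps3a1, positions 899 to 928: tatgaaccgccagtccaagaatcagtGtaa
Rps3a3, same stretch: tatgaaccgccagtccaagaatcagtAtaa
Rps3a3 was listed at 0 in 49.1% of all cells, yet its values reached 41 or more in 160 cells. In the 520 cells of cluster 1 its values formed a group at 0 to 3, set apart by the near absence of cells just above it. The rest formed a wide spread from 8 up, with a dip but no empty gap, which was divided at 28. In 250 cells (48.1%) Rps3a3 was at 0 to 3, and Rps3a1 had a median of 36 (5th to 95th percentile 25.4 to 48). In 149 cells (28.7%) Rps3a3 was at 10 to 27, and Rps3a1 had a median of 21 (10.4 to 28). In 119 cells (22.9%) Rps3a3 was at 28 or more, and Rps3a1 had a median of 5 (1.90 to 22). The central 90% of Rps3a1 values overlap between the latter ranges. Only 2 cells of cluster 1 had Rps3a3 values from 4 to 7, while the bins of 4 values on each side of 28 held 38 and 22 cells. The next bins, from 32 and from 36, held 9 and 21 cells. The cut at 28 therefore lies below the dip, and the upper range mixes cells from both sides of it. These ranges were drawn after the values had been seen.

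The sum of both genes had medians of 36, 40 and 47 in these ranges, and the ribosomal protein share was 16.4%, 15.9% and 16.7%. The same ranges held 47.8%, 28.7% and 22.8% of the 513 cells of cluster 2. Within cluster 1 the Pearson r between the levels of both genes over cells was -0.87, against 0.11 between Rps3a1 and Rps4x. The variance of Rps3a3 over the cells of cluster 1 was 19.0 times its mean and that of Rps3a1 7.66 times, where the median over 82 members was 1.38. Rpsa-ps10, the copy of Rpsa (chr3:150072658-150073542), moved with the ranges, with medians of 1, 13 and 13 in cluster 1. Whether the ranges follow embryos or sample barcodes was not tested.

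The split also differed by class. Rps3a3 was at 4 or more in 50.7% of VZ cells, 36.6% of SVZ cells and 25.2% of neurons, and its level was 11.005 (SD 12.6), 6.83 and 2.65 (SD 4.805), which makes it the member with the lowest ratio (log2 ratio of neurons to VZ cells -2.06). The cut at 4 is fixed, while the values of both genes are lower in neurons. In cluster 4, GABAergic MGE neuron-like cells, Rps3a3 was at 0 to 3 in 65.2% of 374 cells with a Rps3a1 median of 22, at 4 to 9 in 14.4% with a median of 12 and at 10 to 27 in 19.8% with a median of 12. Rps3a1 alone had 18.5 in VZ cells (SD 10.2) and 15.04 in neurons (SD 6.23).

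**Figure D4:**
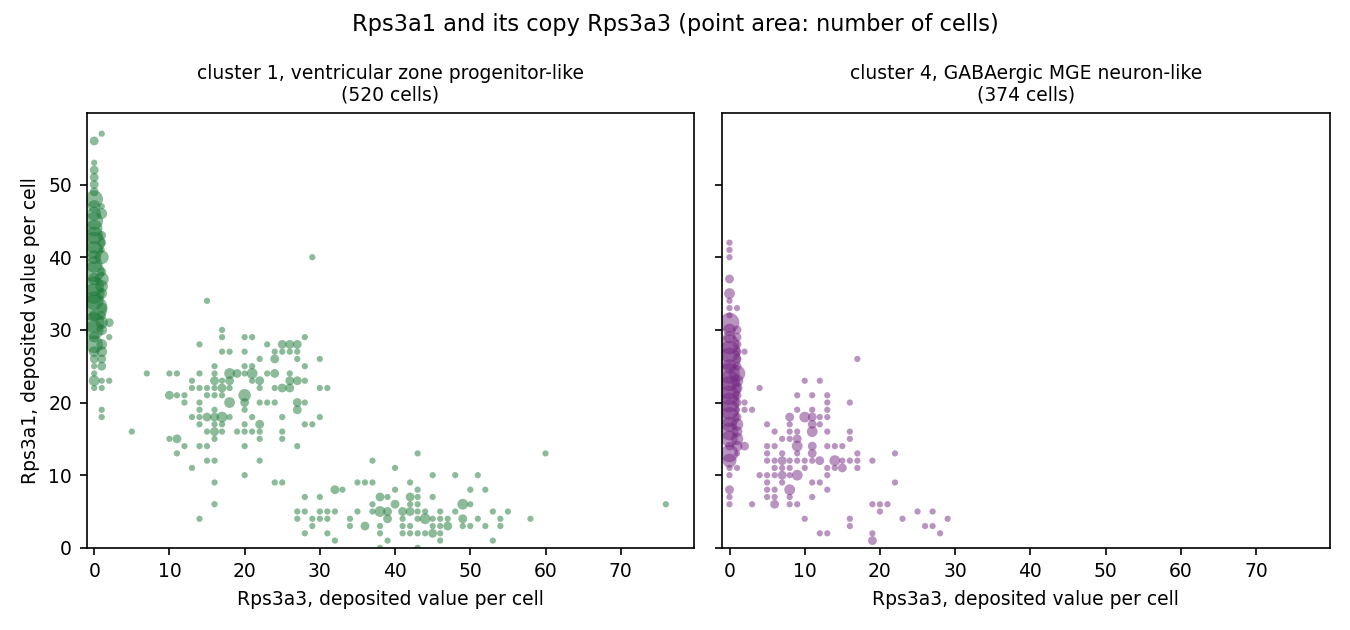
Deposited value of Rps3a1 (y axis) against that of Rps3a3 (x axis) per cell in cluster 1 (left, 520 cells) and cluster 4 (right, 374 cells), with point area proportional to the number of cells at that pair of values. Cluster 1 shows a separate group of cells with Rps3a3 at 0 to 3 (Rps3a1 median 36) and a wide spread of higher Rps3a3 values. In that spread the Rps3a1 median is 21 below an Rps3a3 value of 28 and 5 from 28 up. Whether Rps3a1 falls with Rps3a3 inside either range was not measured.

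Between SVZ and VZ progenitor-like cells most members, 75 of 83, lay short of the rule. These values share the VZ cells with the comparison above, so both are given side by side and not set against each other. The summed level was 1433 per 10000 in SVZ cells against 1566 in VZ cells, 1.09-fold lower. Of 83 members, 8 were lower and 0 higher by the same rule, where 25.7% of all genes were lower and 17.5% higher, and the members' median log2 ratio was -0.12 against -0.07. At a minimum level of 1, 8 of 81 members were lower and 0 higher, where 10.8% of 1880 genes were lower and 25.6% higher. At 1.5-fold 1 member, Rps3a3, was lower and 0 higher, against 12% and 8.54%. The lowest ratios were those of Rps3a3 (-0.69), Rpl22l1 (-0.53), Rpl36al (-0.53), Rpl7l1 (-0.47) and Rps2 (-0.43), so 4 of these 5 are paralogs or copies. Only 3 of the 77 canonical genes, Rps2, Rpl12 and Rps6, were lower by that rule. The highest were Rpl13a (0.09), Rps9 (0.07), Rps27 (0.07), Rpl37a (0.05) and Rpl35a (0.01). The SVZ class also held the widest range of clusters, from 13.4% in cluster 9 to 17.6% in cluster 16, so its mean lies between unlike cells.

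The summed level was 1002 per 10000 in cholinergic neuron-like and 1097 in GABAergic MGE neuron-like cells, a log2 ratio of -0.13. Only 1 of 83 members, Rps4l, was lower and 0 were higher, where 10.5% of all genes were lower and 12.7% higher. At a minimum level of 1 both counts were 0, against 5.37% and 5.32% of genes, and at 1.5-fold they were 0 against 4.66% and 5.25%. The lowest ratios at a level of at least 1 were those of Rplp0 (-0.25), Rpl22 (-0.24), Rpl4 (-0.23), Rpl10 (-0.22) and Rps19 (-0.22). The highest were those of Rpl22l1 (0.29), Rpl26 (0.17), Rpl7l1 (0.13), Rpl36al (0.01) and Rpl3 (-0.01). The direction of the sum rests on how the clusters were drawn, since it was 0.21 at a clustering resolution of 2 and 0.09 with 4000 variable genes. Rplp0, Rpl22, Rpl4, Rpl10 and Rps19 had ratios above 0 in the same alternatives, Rpl26 fell below 0 in 5 of 12 (to -0.31), and Rpl22l1 was -0.0073 in 1. Rpl3 and Rpl36al took either sign, from -0.11 to 0.30 and from -0.08 to 0.11.

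Genes that act with the ribosome were counted from fixed lists, with the same rule for neurons against VZ cells. Of 73 tested ribosome biogenesis genes, 67 were lower and 1 (Rrp1) higher, with a median log2 ratio of -1.10, where 39.5% of all genes were lower and 33.8% higher with a median of -0.07. Their summed level was 119 per 10000 in VZ cells and 50.3 in neurons. Examples are Dkc1 and Gar1 of the box H/ACA particles that modify ribosomal RNA (-2.31 and -2.55), Nop58 of the box C/D particles (-1.84) and Gnl3, or nucleostemin (-2.13). In SVZ against VZ cells 46 of the 73 were lower and 0 higher, with a median of -0.46, against 25.7% lower and 17.5% higher over all genes. Of 77 mitochondrial ribosomal protein genes, 48 were lower and 2 higher (median -0.54). Of 19 genes of RNA polymerases I and III and their factors, 11 were lower and 2 higher (-0.57).

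Factors of translation itself were mixed, and their counts stand against the same 39.5% lower and 33.8% higher over all genes. Of 9 elongation and termination factors, 5 were lower and 1 higher (median -0.65): Eef1d had 5.89 in VZ cells and 1.16 in neurons, Eef1a1 56.5 and 48.1, and Eef2, which moves the ribosome along the mRNA, 6.75 and 10.4. Of 38 initiation factors, 19 were lower and 6 higher (-0.37), with Eif1ax at 3.995 and 1.46 and Eif4a2 at 0.954 and 2.19. Of 23 non-ribosomal TOP genes, which share some genes with the lists above, 11 were lower and 3 higher (-0.30). Of 20 chaperones of nascent chains, 8 were lower and 2 higher (-0.27), a share of lower genes near that over all genes. Of 29 genes of the mTOR pathway, 8 were lower and 11 higher (0.15), the latter also a share near that over all genes. Of 11 genes of the Myc family and its partners, 2 were lower and 6 higher (0.55). This count does not stand for Mycn or Myc alone. Mycn ran from 0.132 (cluster 15) to 0.534 (cluster 1) in VZ clusters and from 0.0491 (cluster 5) to 0.631 (cluster 12) in neuron-like ones. Myc was low in every cluster, at most 0.110 (cluster 8). Fau, which encodes a ribosomal protein fused to a ubiquitin-like protein and lies outside the symbol rule, had a log2 ratio of -0.16, short of the rule for a call. Cell cycle genes moved with the same contrast, with summed levels of 39.3 in VZ cells and 3.19 in neurons for 20 S phase genes and 52.7 and 1.02 for 20 G2 and M phase genes.

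Ribosome biogenesis genes and ribosomal protein genes did not keep the same order over clusters. In cluster 10 the canonical ribosomal protein genes stood at 94.9% of their highest cluster and the biogenesis list at 53.0% of its highest. In clusters 3 and 6, also unnamed and with Mki67 levels under 0.1, the values were 76.5% and 40.4%, and 77.8% and 42.8%. In cluster 11 of cycling SVZ progenitor-like cells they were 77.5% and 72.5%. Initiation factors varied least, between 82.99% and 100% of their highest cluster. The genes outside the members whose level followed the members' sum most closely over the 17 clusters, among 1799 genes with a level of at least 1, were Gm10260 (r = 0.98, the copy of Rps18), Tomm7 (0.97), Eif3i (0.96), Naca (0.95), Rack1 (0.95), Btf3 (0.95), Tbrg1 (0.95), 1110038B12Rik (0.94), Gm15772 (0.94, the copy of Rpl26) and Hnrnpm (0.94). These are descriptions over clusters of 1 library that share its scaling.

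**Figure D5:**
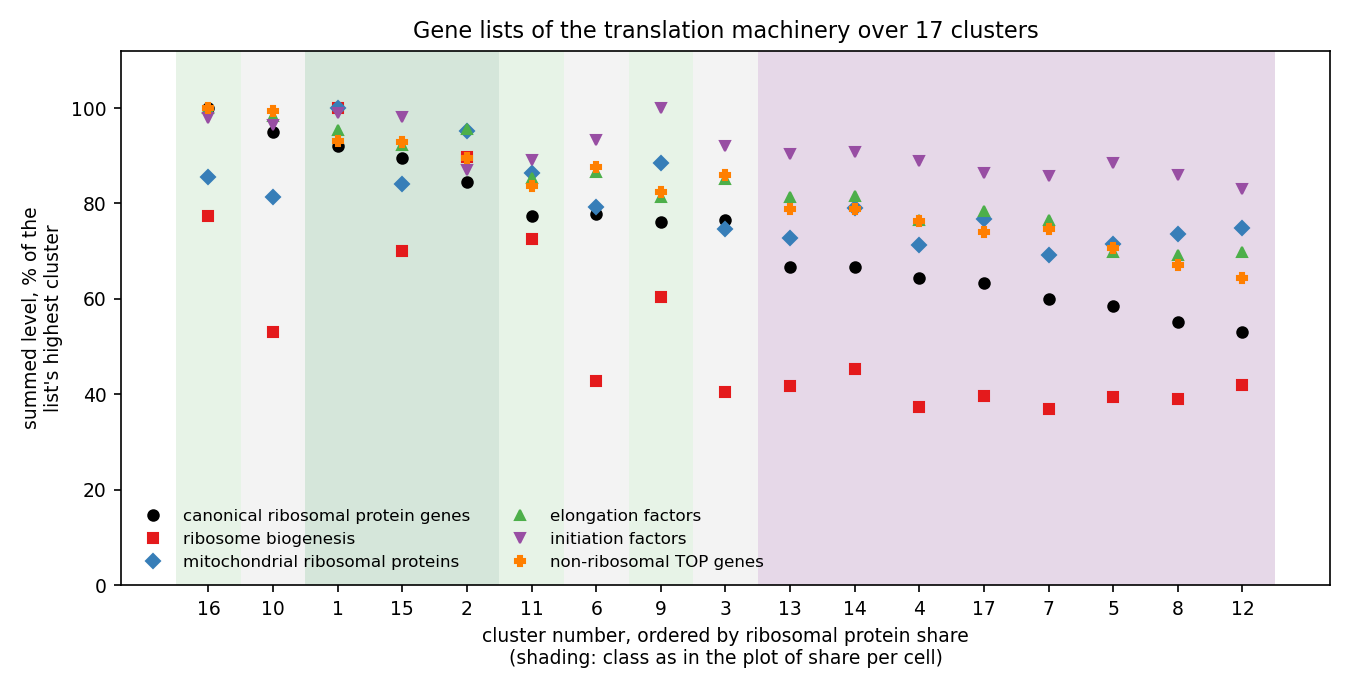
Summed level of 6 gene lists (y axis, % of the list's highest cluster) in 17 clusters (x axis, ordered by ribosomal protein share), with the class of each cluster shaded. Ribosome biogenesis genes stand at 53.0% in cluster 10, where the canonical ribosomal protein genes stand at 94.9%.

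Members with a long pyrimidine run at the annotated start, as printed above, had ratios close to the rest. The median log2 ratio of neurons to VZ cells was -0.54 for the 17 tested members with a run of at least 10 and -0.50 for the 44 with a window but no such run. Of the 5 with the longest runs, Rpl27a had a log2 ratio of -0.67, Rpl35 of -0.40, Rpl15 of -0.30, Rpl7a of -0.29 and Rpl14 of -0.99, and Rps2 and Rpl12, with longest runs of 6 and 7, had -1.64 and -1.35. Among the 335 non-members with a run of at least 10, the median was 0.19 and 106 were lower by the rule. That is a smaller share than the 39.5% lower over all 8750 genes.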

How the data were processed

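The authors deposited 1 table of 18088 genes and 4001 cells from the RNA library, with no file of values for the barcode library used here. The submitters' processing notes name bcl2fastq, Cell Ranger 3.0.2 and the build GRCm38. The deposited values are whole numbers from 0 to 1245 and were treated as a score, because 215 cells (5.37%) skip the value 1 over 872 genes of mean near 1 and cell totals lie in a narrow range. No label or header names the adjustment behind them, so no counting interval was computed, and the 0 mitochondrial rows allow no check of RNA quality by that measure. The members and all gene lists were chosen with earlier results of these data known.

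From these values, scrublet in scanpy 1.11.5 (expected doublet rate 5%) called 6 cells (0.150%), which were removed. So low a share cannot be taken as a count of doublets, which remain possible. All cells had at least 1000 genes. After scaling each cell to 10000 and taking logs, the 2000 most variable genes outside the members, 30 principal components, 15 neighbours and Leiden clustering (resolution 1, igraph 0.11.9, seed 0) gave 17 clusters. Of 119 markers listed, 87 had a row. A name needed 3 markers at 1.5 times the level of other cells and in 10% of cells, and no more markers of another class among the 10 leading genes. Rebuilt names may differ from the authors'.

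Levels are summed values per 10000 and ratios are log2 ratios of levels, with a minimum level of 0.1 and a call at 25% higher or 20% lower. Named genes were the paralog pairs, the 6 highest and 6 lowest members, the 5 at each end of each comparison at a level of at least 1, 12 members of known separate roles and the 10 genes most like the members' sum over clusters. The pairs with copies and the example genes of other lists were chosen after their values were seen. Some genes named by this rule are not reported here. Copies were found with blastn 2.17.0+ in GENCODE M21 transcripts. Alternatives changed the clustering, the scaling, the filters and the fold.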

Additional observations from a re-analysis of the deposited data

How the results depend on the processing

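An alternative counts as unchanged when a value moves by less than 0.1 on the log2 scale, or a count stays within 1.5 times. The summed ratio of neurons to VZ progenitor-like cells ran from -0.66 (mean deposited value per cell) to -0.47 over 12 alternatives. The number of lower members was 35 at a fold of 1.5 and between 53 and 70 otherwise. Over all genes 29.8% were lower at that fold, and between 33.9% (minimum level of 1) and 44.0% (no minimum beyond 30 summed values) otherwise. Higher members numbered 0 at that fold, 1 at a minimum level of 1 and otherwise 2. Over all genes 24.8% and 37.7% were higher in the first 2 of these settings, and between 30.3% (mean deposited value per cell) and 34.0% (cells that skip the value 1 left out) otherwise. For SVZ against VZ cells, 1 member was lower at a fold of 1.5 and 5 with cells above their cluster's median Malat1 level left out. Over all genes 12.0% and 33.4% were lower in these settings. The comparison of cholinergic with GABAergic neurons was the least stable. Its summed ratio was 0.21 at resolution 2, 0.089 with 4000 variable genes and -0.00032 with called doublets kept, where the cholinergic share was 11.9%, 11.53% and 10.7%. The median over members was then 0.20 at resolution 2 and 0.086 with 4000 variable genes. Lower members numbered 2 at resolution 0.5 and with classes and levels from separate values, where 10.6% and 15.4% of all genes were lower. They numbered 0 at a fold of 1.5 or a minimum level of 1, where 4.66% and 5.37% of all genes were lower. Higher members numbered 3 at resolution 2, and 1 with no minimum beyond 30 summed values or in the cells of low Malat1. Over all genes 10.4%, 21.3% and 16.2% were higher in these settings. Single members reversed in that comparison: at resolution 2 Rplp0 (0.20), Rpl22 (0.19), Rpl4 (0.17), Rpl10 (0.18), Rps19 (0.16) and Rpl26 (-0.15), and with 4000 variable genes Rplp0 (0.051), Rpl22 (0.020), Rpl4 (0.038), Rpl10 (0.022), Rps19 (0.016) and Rpl26 (-0.31). Rpl26 also reversed with the members kept among the variable genes (-0.18), from separate values (-0.16) and with doublets kept (-0.15), and Rpl22l1 from separate values (-0.0073). Rpl3, reported near 0, moved to 0.30, 0.20 and 0.12 at resolution 2, with 4000 variable genes and with doublets kept. The cause was not tested.

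Shares changed with the denominator by construction: per 100 values outside the members they were 18.6 in VZ, 16.7 in SVZ, 11.9 in neuron-like, 12.3 in GABAergic and 11.1 in cholinergic cells, and with Malat1 also left out 18.8, 16.98, 12.4, 12.9 and 11.6. In cells at or below their cluster's median Malat1 level they were 15.5% in SVZ, 11.8% in neuron-like, 12.1% in GABAergic and 11.2% in cholinergic cells. No paired analysis was possible because the RNA library is the only sample with values. Raw depth per cell is unknown, so differences in single members at a level near 1 are limited by few molecules per cell.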

Other observations

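The share of Rpl36al in its pair differed between neuron-like clusters. It gave 24.3% of the summed values of Rpl36al and Rpl36a in the LGE-like cluster 12 and 18.3% and 14.8% in the cholinergic clusters 8 and 5, against 14.6% in the GABAergic cluster 4 and 9.92% in the unnamed cluster 10. Its own level was 1.81 in cluster 12 and 1.42 in cluster 4, while Rpl36a had 5.64 and 8.29. In the same clusters Rpl22l1 gave 27.9% of its pair in cluster 12 and 18.4% in cluster 4, with levels of 2.59 and 2.15. These are levels of single clusters of 1 library, picked after their values were seen.

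Most members varied far less between cells than the Rps3a pair. Over the 520 cells of cluster 1 the variance divided by the mean had a median of 1.38 and a 95th percentile of 2.55 over the 78 members with a mean value of at least 5, against 1.33 and 4.62 over all 396 genes with such a mean. Rpl26 was at 1.52 in cluster 1 and 4.45 in cluster 5, where its upper quartile was 7 against a median of 2.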
